A study of Mus musculus with 2 samples.

Results

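The genes described here are 38 effectors of the type I interferon response, the proteins that a cell makes once interferon has told it to resist a virus. They were chosen by gene symbol from a list of known interferon effectors, and all 38 were found among the 25668 symbols of both libraries. The study grew organoids of mouse fallopian tube (oviduct) epithelium, a layer made of secretory and multiciliated cells. The Trp53 KO group was 1 library of organoids in which the gene of the tumour suppressor p53 had been knocked out. The control group was 1 library of normal organoids, labelled WT, from a mouse whose Gt(ROSA)26Sor locus carries a transgene for Cas9 and EGFP driven by the CAG promoter. Both were labelled as treated with conditioned medium. The mouse of the knockout organoids, the number of mice, their age, and whether the knockout is 1 clone are not stated in the labels, and with 1 library in each group no difference below has a replicate check or a test.

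Type I interferons bind the receptor made of Ifnar1 and Ifnar2, whose kinases Jak1 and Tyk2 activate the factor ISGF3, of which Stat2 and Irf9 are part. ISGF3 binds a promoter sequence called the interferon-stimulated response element. The genes it turns on include RNA-binding Ifit proteins, the ubiquitin-like Isg15 system, Mx GTPases, Oas enzymes that sense double-stranded RNA, and many membrane proteins and enzymes that block single steps of viral growth. In the female reproductive tract of the mouse, epithelium also makes its own interferon, interferon epsilon, without infection.

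Promoter sequences of members are shown first because the members are known as targets of that element. RefSeq promoter windows (assembly GRCm38.p6, 250 bases before to 50 after the annotated start) matched 29 of the 38 members by symbol. The core of the element was searched on both strands as GAAA, any 2 bases and GAAA, which reads TTTC, any 2 bases and TTTC when the match lies on the opposite strand, and overlapping matches were counted separately. Of the 29 members, 13 (44.8%) held a match, against 3.99% of all 27025 genes with a window. To let the spacing and copy number of the element be compared, 7 of the 9 members with a match and a mean level of at least 1 TPM are given, with every match in capitals. They are written 5′ to 3′ on the gene's strand.
Isg15, chr4:156200769-156201068, minus strand: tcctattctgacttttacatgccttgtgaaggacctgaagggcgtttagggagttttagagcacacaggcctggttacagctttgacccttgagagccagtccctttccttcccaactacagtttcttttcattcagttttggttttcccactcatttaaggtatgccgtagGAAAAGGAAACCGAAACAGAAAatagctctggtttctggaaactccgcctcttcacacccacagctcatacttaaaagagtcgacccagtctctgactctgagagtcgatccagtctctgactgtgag
Ifit1, chr19:34640639-34640938, plus strand: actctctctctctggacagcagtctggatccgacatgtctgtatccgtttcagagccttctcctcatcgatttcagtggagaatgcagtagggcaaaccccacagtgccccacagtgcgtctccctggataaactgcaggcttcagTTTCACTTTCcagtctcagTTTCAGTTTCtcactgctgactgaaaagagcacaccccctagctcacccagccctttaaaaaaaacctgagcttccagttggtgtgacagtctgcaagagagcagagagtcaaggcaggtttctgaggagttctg
Ifit3, chr19:34583279-34583578, plus strand: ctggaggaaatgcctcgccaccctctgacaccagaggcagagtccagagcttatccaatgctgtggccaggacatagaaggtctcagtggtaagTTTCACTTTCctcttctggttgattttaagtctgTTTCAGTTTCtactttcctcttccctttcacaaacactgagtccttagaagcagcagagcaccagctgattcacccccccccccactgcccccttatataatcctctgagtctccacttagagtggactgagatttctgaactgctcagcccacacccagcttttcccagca
Oas1a, chr5:120907476-120907775, minus strand: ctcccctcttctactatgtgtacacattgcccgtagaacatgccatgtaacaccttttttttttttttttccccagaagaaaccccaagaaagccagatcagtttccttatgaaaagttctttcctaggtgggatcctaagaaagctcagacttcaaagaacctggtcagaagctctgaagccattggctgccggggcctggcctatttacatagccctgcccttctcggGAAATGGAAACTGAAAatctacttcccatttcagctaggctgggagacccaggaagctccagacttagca
Oas1g, chr5:120887564-120887863, minus strand: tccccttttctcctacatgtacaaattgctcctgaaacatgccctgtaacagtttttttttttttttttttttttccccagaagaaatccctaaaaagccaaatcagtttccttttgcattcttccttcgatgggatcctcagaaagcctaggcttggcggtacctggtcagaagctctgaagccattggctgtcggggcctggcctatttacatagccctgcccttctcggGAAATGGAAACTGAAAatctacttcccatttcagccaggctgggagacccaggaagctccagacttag
Bst2, chr8:71537423-71537722, minus strand: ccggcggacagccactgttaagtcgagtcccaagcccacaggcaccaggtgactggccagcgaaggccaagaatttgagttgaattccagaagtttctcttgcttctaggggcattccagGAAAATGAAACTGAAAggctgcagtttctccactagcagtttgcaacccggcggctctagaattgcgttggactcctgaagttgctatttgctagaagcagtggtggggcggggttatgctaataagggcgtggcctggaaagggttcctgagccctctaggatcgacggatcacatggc
Ifitm3, chr7:141010695-141010994, minus strand: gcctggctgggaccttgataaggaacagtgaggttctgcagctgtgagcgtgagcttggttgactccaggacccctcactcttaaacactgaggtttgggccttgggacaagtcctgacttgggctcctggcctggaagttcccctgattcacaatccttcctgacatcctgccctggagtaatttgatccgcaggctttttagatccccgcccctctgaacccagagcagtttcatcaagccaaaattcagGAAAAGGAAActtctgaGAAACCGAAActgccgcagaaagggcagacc

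The Isg15 window holds 3 overlapping matches that begin at positions −78, −72 and −66, counted from the annotated start. Ifit1 and Ifit3 each hold 2 separate matches on the opposite strand, Ifit1 at −104 and −85 and Ifit3 at −156 and −122. The overlapping pair of Oas1a begins at −20 and that of Oas1g at −18, and the 2 windows are 85.3% identical. Bst2 holds an overlapping pair that begins at −130. Ifitm3, the most abundant member, holds 2 matches just after the annotated start. The longer run of 3 GAAA repeats, each 2 bases apart, was found in 4 of the 29 members, Isg15, Oas1a, Oas1g and Bst2, and in 0.133% of all genes with a window. A second interferon-related motif, the gamma-activated site searched as TTCNNNGAA, was found in 6 of the 29 members (20.7%), against 9.55% of all genes.

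**Figure D1:**
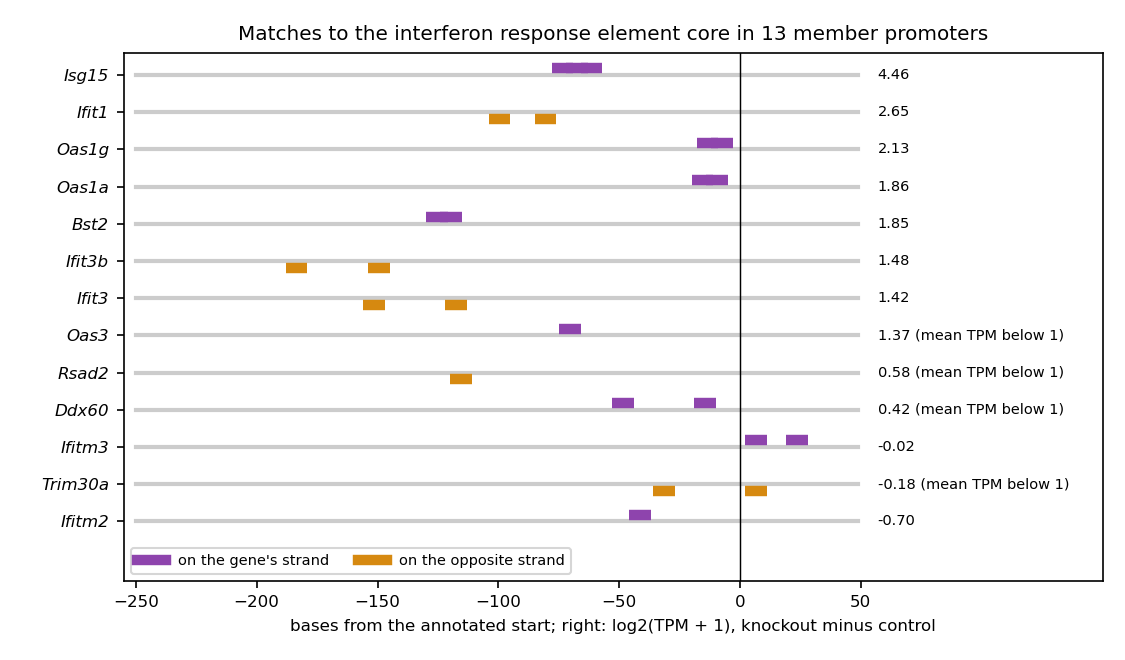
Positions of matches to the response element core in the promoter windows of 13 members, in bases from the annotated start, with matches on the gene's strand in purple above each line and matches on the opposite strand in orange below it. The genes run from the highest difference between the libraries, Isg15 at 4.46, to the lowest, Ifitm2 at −0.70. For Trim30a the matches of 2 annotated starts are drawn on 1 line.

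The values are TPM, the authors' length-scaled abundance, which sums to the same total in each library and allows levels to be compared between genes. Reads recovered from the TPM values summed to 30521312 in the Trp53 KO library and 110457147 in the control library. Trp53 itself stood at 2.42 TPM from 80 reads in the Trp53 KO library, against 83.2 TPM from 9256 reads in the control library. The library labelled as the knockout thus held little Trp53 RNA. The 5 epithelial markers, among them Epcam and Krt8, summed to 5948 TPM in the Trp53 KO library and 6961 TPM in the control library, none differing by 2-fold. Epithelial identity was present in both, and connective tissue RNA was close to absent. The 6 fibroblast markers summed to 0 TPM in the Trp53 KO library and 0.0667 TPM in the control library. Of the 3 oviduct secretory markers, Pax8 stood at 46.0 TPM in the Trp53 KO library and 44.8 TPM in the control library. The other 2 were lower, Ovgp1 at 0.192 TPM in the Trp53 KO library and 7.44 TPM in the control library, and Wt1 at 7.85 TPM in the Trp53 KO library and 35.3 TPM in the control library. The kind of epithelium also differed. The 5 basal and squamous markers summed to 3005 TPM in the Trp53 KO library and 4.70 TPM in the control library. The 4 measured multiciliated markers were lower in the Trp53 KO library. The part of these marker differences in the interferon gene differences was not tested. In whole-organoid RNA, fewer cells of a type and less RNA per cell cannot be told apart.

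Interferon effectors were mostly higher in the Trp53 KO library, but not as a block. A gene is called higher or lower here when log2(TPM + 1) in the Trp53 KO library minus that in the control library is at least 1 in size, which is 2-fold, and it is counted only at a mean of at least 1 TPM. Of the 38 members 28 reached that level. Of these, 15 were higher and 2 lower, where 8.35% of all 11228 measured genes were higher and 15.3% lower. The median difference was 1.25 over the 28 members and −0.17 over all measured genes. Among the higher members, Ifit1, Ifit3b, Usp18 and Oasl1 reached a mean of 1 TPM only through the Trp53 KO library. With no filter, 16 of 38 members were higher and 2 lower, where 3.82% and 7.41% of all 25668 genes were. After quantile normalization, which put the median of all genes at 0.03, 1292 genes were higher and 1321 lower, where 937 were higher and 1715 lower as deposited, and 17 of 30 members were then higher and 2 lower.

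The members that did not reach a mean of 1 TPM were Ifit2, Herc6, Mx1, Mx2, Oas2, Oas3, Rsad2, Ifi44, Ddx60 and Trim30a. For all 38 members the TPM ratio was therefore also given with a 95% counting interval from the recovered reads, which covers counting error only. The interval lay wholly above 2 for 20 members and wholly below 0.5 for 2, where 7.23% and 16.7% of 16387 genes with a read did so. Of the 10 low members, 5 had an interval wholly above 2 and 0 wholly below 0.5, where 4.61% and 19.2% of 5224 genes with a read and a mean below 1 TPM did so. The ratio was above 1 for 29 members and below 1 for 9.

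**Figure D2:**
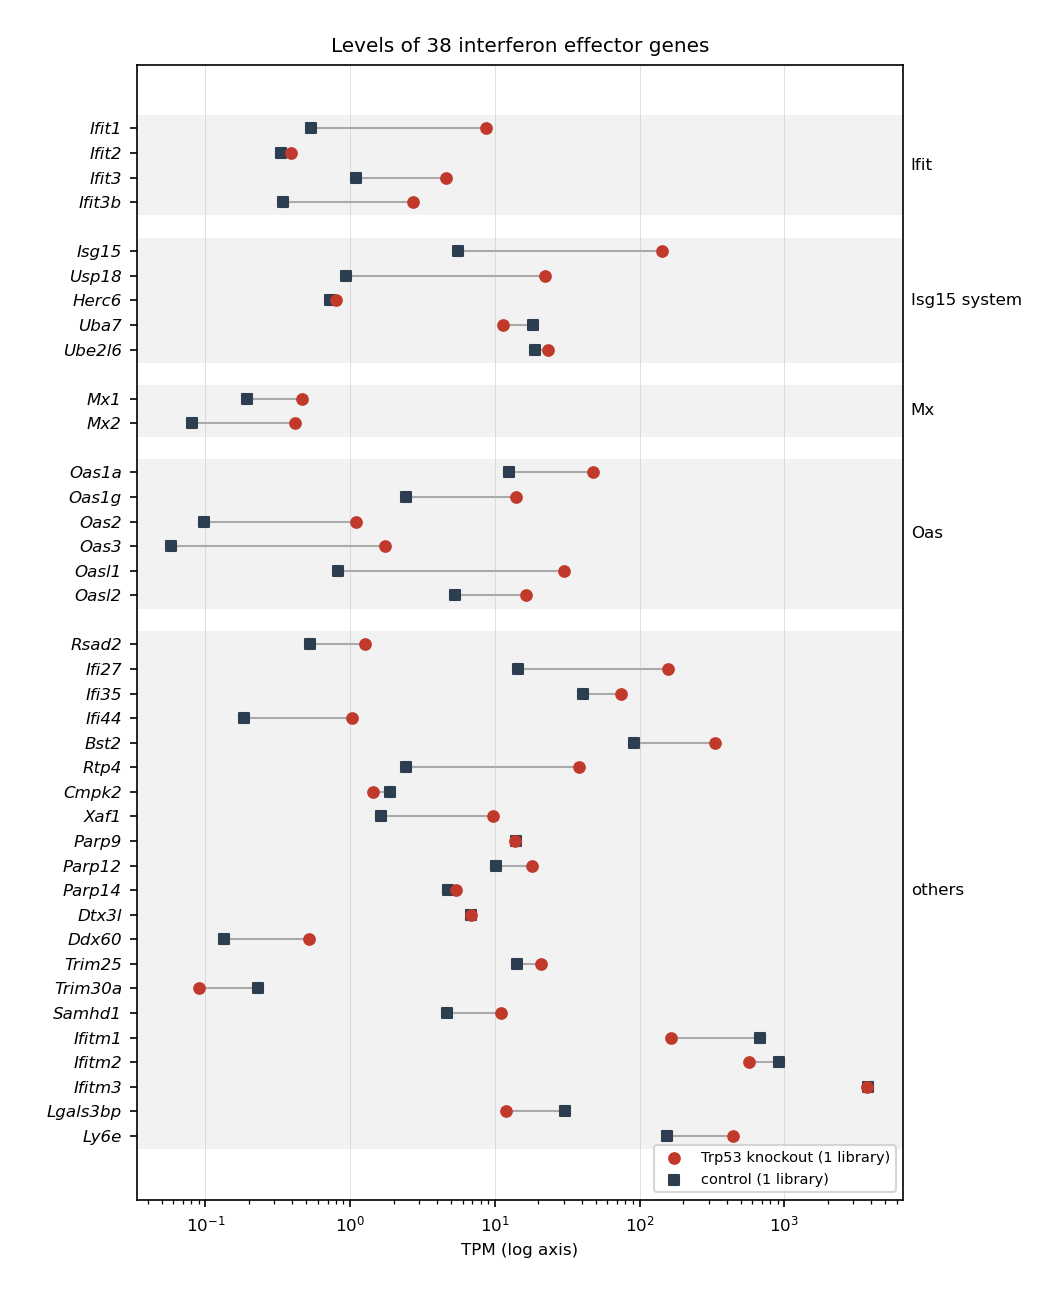
Level of each of the 38 members in TPM on a log axis, grouped by family, with the Trp53 KO library as red circles and the control library as dark squares. The levels run from below 0.1 TPM to 3734 TPM for Ifitm3 in the Trp53 KO library, and Isg15 stands at 144 TPM in the Trp53 KO library against 5.62 TPM in the control library.

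The Oas family was the most uniform. Oas enzymes make short chains of linked adenosines when they meet double-stranded RNA, and these chains switch on the nuclease RNase L. All 6 members had an interval wholly above 2, and the 4 measured ones had a median difference of 1.99. Oasl1, an Oas-like protein that has lost the enzyme activity and in the mouse restrains translation of Irf7, was 30.3 TPM in the Trp53 KO library and 0.830 TPM in the control library. Its ratio of 36.5 (interval 29.9 to 44.8) was the highest of the 38 members. Oas3, the largest family member, was 1.74 TPM in the Trp53 KO library and 0.0583 TPM in the control library, from 151 reads in the Trp53 KO library and 17 in the control library, a ratio of 29.9 (interval 18.1 to 52.7). Oas2 was 1.105 TPM in the Trp53 KO library and 0.0985 TPM in the control library, from 80 reads in the Trp53 KO library and 24 in the control library, a ratio of 11.2 (interval 7.03 to 18.5).

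The remaining Oas genes were already well above those levels in the control library. Oas1a was 47.9 TPM in the Trp53 KO library and 12.5 TPM in the control library, a ratio of 3.84 (interval 3.57 to 4.12). Oas1g was 14.1 TPM in the Trp53 KO library and 2.44 TPM in the control library, a ratio of 5.76 (interval 4.98 to 6.66). Oasl2, an Oas-like protein that keeps its enzyme activity in the mouse, was 16.4 TPM in the Trp53 KO library and 5.34 TPM in the control library, a ratio of 3.07 (interval 2.81 to 3.36). The 3 Oas genes below 1 TPM in the control library had the 3 largest ratios of the family. The control level is the denominator of these ratios, so this order is partly built in. Oas1a and Oas1g are close copies: 57.6% of the 50-base stretches of the Oas1a transcript, the length of a read here, also occur in Oas1g, so the split between this pair is uncertain.

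In the Isg15 system the modifier and its protease stood apart from the enzymes that attach it. Isg15, a small ubiquitin-like protein that is both secreted and linked to other proteins, was 144 TPM from 1792 reads in the Trp53 KO library and 5.62 TPM from 235 reads in the control library. Its difference of 4.46 ranked 40th of the 11228 measured genes. Usp18, which removes Isg15 from proteins and blocks the interferon receptor, was 22.2 TPM in the Trp53 KO library and 0.941 TPM in the control library. The ratios of the 2 genes were close, 25.7 (interval 22.4 to 29.5) for Isg15 and 23.6 (interval 19.4 to 28.9) for Usp18, and their intervals overlapped.

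The conjugation enzymes showed no such difference. Uba7, which activates Isg15, was 11.4 TPM in the Trp53 KO library and 18.3 TPM in the control library, a ratio of 0.625 (interval 0.577 to 0.676). Ube2l6, which carries the activated Isg15, was 23.4 TPM in the Trp53 KO library and 18.8 TPM in the control library, a ratio of 1.24 (interval 1.14 to 1.36). Herc6, the ligase that transfers Isg15 in the mouse, was 0.803 TPM in the Trp53 KO library and 0.733 TPM in the control library, and its interval of 0.820 to 1.45 included no difference. Isg15 was thus 12.6 times the level of Uba7 in the Trp53 KO library and 0.308 times that level in the control library. Isg15 lies on chromosome 4, where 196 of 680 measured genes were at least 2-fold higher and the median difference was 0.62, and the part of that in the Isg15 value was not tested. Without the genes of chromosomes 2 and 4, 13 of 25 measured members were higher and 2 lower, where 6.55% and 16.4% of 9646 measured genes were. Ube2l6 and Samhd1 lie on chromosome 2, whose median difference was 0.20.

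Among the Ifit genes 3 of 4 were higher. The protein of Ifit1 binds viral RNA that lacks host marks at its end. Ifit1 was 8.64 TPM in the Trp53 KO library and 0.538 TPM in the control library, a ratio of 16.1 (interval 12.7 to 20.6). Ifit3 was 4.600 TPM in the Trp53 KO library and 1.10 TPM in the control library, a ratio of 4.19 (interval 3.25 to 5.41). Ifit3b was 2.74 TPM in the Trp53 KO library and 0.344 TPM in the control library, a ratio of 7.96 (interval 5.47 to 11.8). Ifit3 and Ifit3b are near-identical over long stretches, with 51.2% of the 50-base stretches of Ifit3 found in Ifit3b, so the split between the pair is uncertain. Ifit2, a neighbour of the other 3 on chromosome 19, differed from them. It was 0.389 TPM from 27 reads in the Trp53 KO library and 0.334 TPM from 78 reads in the control library, and its interval of 0.723 to 1.83 lay below those of Ifit1, Ifit3 and Ifit3b. Neither of the 2 annotated Ifit2 windows holds the letters of the response element core, but the same is true of 4 members called higher. The part of the windows in the Ifit2 value was not tested.

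The Mx genes, GTPases that trap viral nucleoproteins and that are defective in many laboratory mouse strains, were barely detected. Mx1 was 0.467 TPM from 28 reads in the Trp53 KO library and 0.193 TPM from 39 reads in the control library, a ratio of 2.42 (interval 1.43 to 4.03). Mx2 was 0.419 TPM from 23 reads in the Trp53 KO library and 0.0811 TPM from 15 reads in the control library, a ratio of 5.16 (interval 2.58 to 10.6). Both were higher in the Trp53 KO library beyond counting error, at levels far below those of Isg15.

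**Figure D3:**
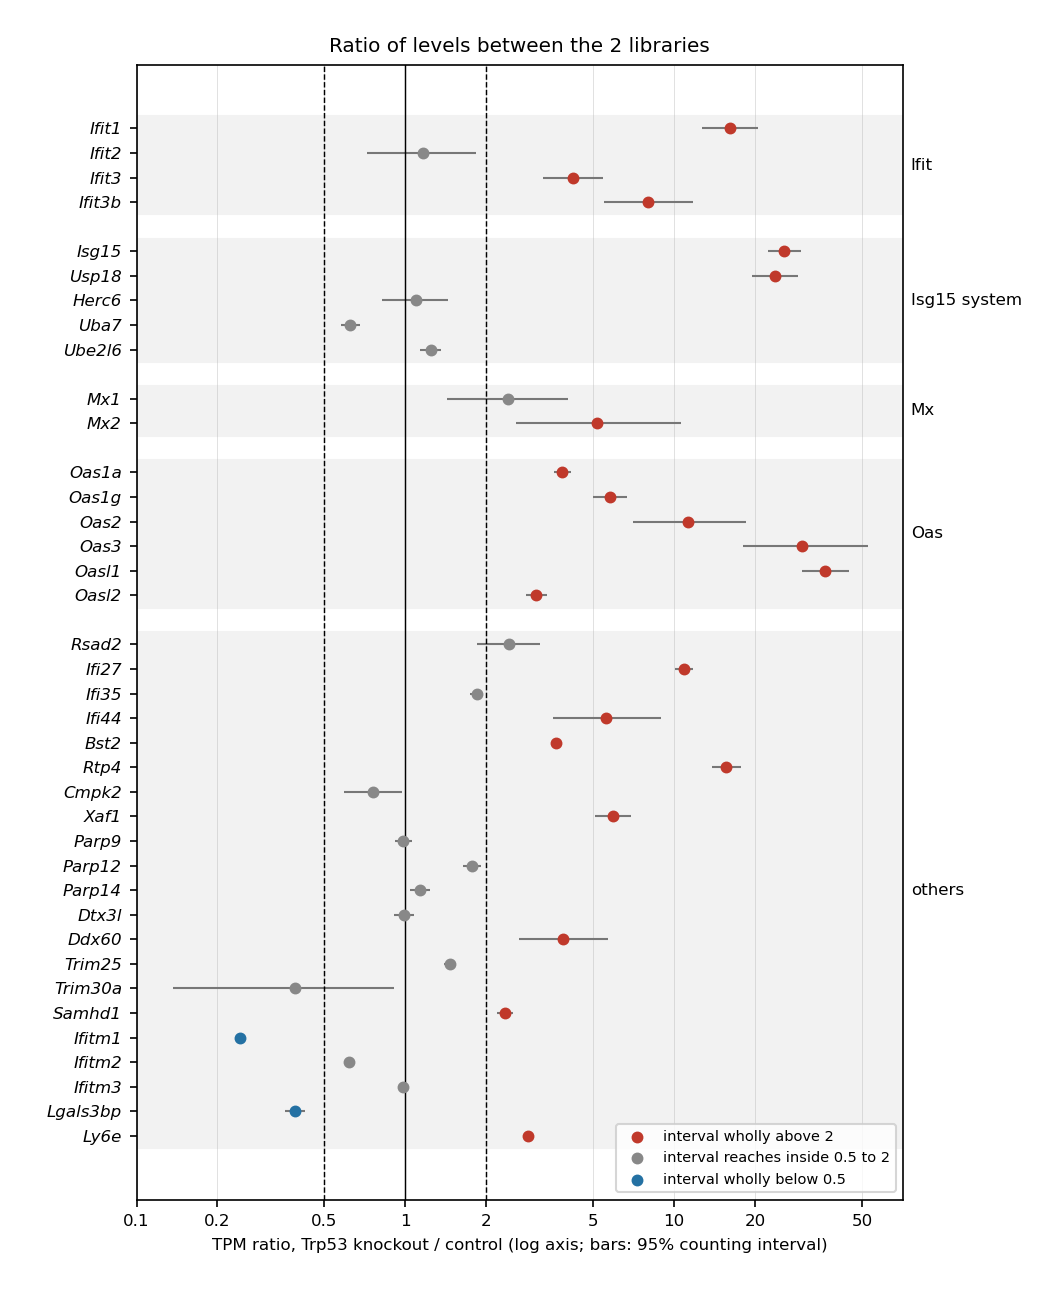
TPM ratio of the Trp53 KO library over the control library for each of the 38 members on a log axis, with bars for the 95% counting interval and dashed lines at 2-fold. The 6 Oas genes all lie to the right of 2, from 3.07 for Oasl2 to 36.5 for Oasl1, while Ifitm1 and Lgals3bp lie to the left of 0.5.

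The other 21 members were more mixed. Among the 17 measured ones 6 were higher, 2 lower, and the median difference was 0.52. The higher ones included proteins of membranes and mitochondria. Ifi27, a small hydrophobic protein of mitochondria and the nuclear envelope, was 157 TPM in the Trp53 KO library and 14.4 TPM in the control library, a ratio of 10.9 (interval 10.1 to 11.8). Rtp4, a chaperone that helps receptors reach the cell surface, was 38.1 TPM in the Trp53 KO library and 2.44 TPM in the control library, a ratio of 15.6 (interval 13.8 to 17.7). Xaf1, which binds the apoptosis inhibitor XIAP, was 9.65 TPM in the Trp53 KO library and 1.63 TPM in the control library, a ratio of 5.93 (interval 5.09 to 6.92).

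The other 3 higher genes of this group had ratios below 4. Bst2, or tetherin, which holds budding virus on the cell surface, was 330.1 TPM in the Trp53 KO library and 91.2 TPM in the control library, a ratio of 3.62 (interval 3.47 to 3.78). Ly6e, a lipid-anchored surface protein that affects virus entry, was 441 TPM in the Trp53 KO library and 155 TPM in the control library, a ratio of 2.85 (interval 2.79 to 2.90). Samhd1, which breaks down the nucleotides that reverse transcription needs, was 10.96 TPM in the Trp53 KO library and 4.65 TPM in the control library, a ratio of 2.36 (interval 2.1996 to 2.521). Bst2 is also a surface marker of plasmacytoid dendritic cells, the main interferon-producing blood cells. Their 6 listed markers summed to 6.34 TPM in the Trp53 KO library and 6.78 TPM in the control library. Siglech, Ccr9 and Tlr7 were at 0 in both libraries and Tlr9 had 3 reads in the Trp53 KO library and 2 in the control library. Irf8 was 5.50 TPM in the Trp53 KO library and 2.41 TPM in the control library, and Tcf4 was 0.794 TPM in the Trp53 KO library and 4.36 TPM in the control library. The part of such cells in the Bst2 value was not tested.

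Several effectors lay between no difference and 2-fold. Ifi35, the partner of Nmi in innate signalling, was 74.7 TPM in the Trp53 KO library and 40.6 TPM in the control library, a ratio of 1.84 (interval 1.74 to 1.94). Its difference was 1.04 after the libraries were rescaled by their median ratio and 0.94 after quantile normalization. Under the other alternatives it stayed within 2-fold. Parp12, an ADP-ribosyltransferase with RNA-binding zinc fingers, was 17.97 TPM in the Trp53 KO library and 10.2 TPM in the control library. Trim25, a ubiquitin ligase that works with the RNA sensor RIG-I, was 20.8 TPM in the Trp53 KO library and 14.2 TPM in the control library.

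A group of ADP-ribosylation genes was level between the libraries. Parp9 and Dtx3l, whose proteins form a complex that modifies histones and viral proteins, had ratios of 0.984 (interval 0.916 to 1.06) and 0.986 (interval 0.904 to 1.07). Parp9 was 13.9 TPM in the Trp53 KO library and 14.1 TPM in the control library. Dtx3l was 6.80 TPM in the Trp53 KO library and 6.90 TPM in the control library. Parp14, a neighbour of both on chromosome 16, was 5.40 TPM in the Trp53 KO library and 4.77 TPM in the control library, a ratio of 1.13 (interval 1.04 to 1.23). These 3 genes and Parp12 all stayed within 2-fold, and the differences of Parp9 and Dtx3l, −0.02 each, turn positive when set against the median of all genes.

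Rsad2 and Cmpk2, which lie next to each other on chromosome 12, differed in direction as deposited, but not after quantile normalization, where Cmpk2 was at 0.22 and Rsad2 at 1.009. Rsad2, or viperin, which turns a nucleotide into a chain terminator, was 1.27 TPM from 95 reads in the Trp53 KO library and 0.526 TPM from 132 reads in the control library, a ratio of 2.42 (interval 1.84 to 3.18). Cmpk2, a mitochondrial nucleotide kinase, was 1.43 TPM from 81 reads in the Trp53 KO library and 1.885 TPM from 359 reads in the control library, a ratio of 0.759 (interval 0.589 to 0.969). Neither reached 2-fold with its whole interval. Of the remaining rare members, Ifi44 had 53 reads in the Trp53 KO library and 32 in the control library, a ratio of 5.57 (interval 3.53 to 8.93). Ddx60, an RNA helicase, had 62 reads in the Trp53 KO library and 54 in the control library, a ratio of 3.86 (interval 2.64 to 5.67). Trim30a, a mouse ubiquitin ligase that dampens inflammatory signalling, had 6 reads in the Trp53 KO library and 52 in the control library, a ratio of 0.388 (interval 0.136 to 0.904).

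The Ifitm genes, membrane proteins that stop virus from fusing with the cell, held the top 3 places among the members in the control library and places 1, 2 and 5 in the Trp53 KO library, and none was called higher. Ifitm3 was 3734 TPM in the Trp53 KO library and 3799 TPM in the control library, a ratio of 0.983, and made up 62.9% of the summed TPM of all 38 members in the Trp53 KO library and 64.8% in the control library. Ifitm2 was 567 TPM in the Trp53 KO library and 919 TPM in the control library, a ratio of 0.616 (interval 0.600 to 0.633). Ifitm1 was 166 TPM in the Trp53 KO library and 684 TPM in the control library, a ratio of 0.243 (interval 0.234 to 0.251), and was 1 of the 2 members called lower. The 3 genes lie together on chromosome 7. The other lower member was Lgals3bp, a secreted glycoprotein that binds galectins, at 11.97 TPM in the Trp53 KO library and 30.8 TPM in the control library, a ratio of 0.389 (interval 0.356 to 0.424).

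The summed level of the 38 members was nearly equal, 5940 TPM in the Trp53 KO library and 5864 TPM in the control library, although most single members differed. Without Ifitm3 the sum was 2206 TPM in the Trp53 KO library and 2065 TPM in the control library. The order of levels within the group differed. Isg15 was 7th among the 38 members in the Trp53 KO library and 16th in the control library, and Oasl1 was 11th in the Trp53 KO library and 26th in the control library. Lgals3bp was 19th in the Trp53 KO library and 7th in the control library. Levels below 1 TPM were found for 6 members in the Trp53 KO library and 14 members in the control library.

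The members with the response element core in their window were described apart, without a test. Of the 9 measured members with a match 7 were higher, 0 lower and 2 within 2-fold, with a median difference of 1.85. Of the 13 measured members with a window but no match 4 were higher, 2 lower and 7 within 2-fold, with a median of 0.52. Another 4 members with a match and 3 without did not reach a mean of 1 TPM. Ifit1 and Ifit3b, with a match, and Oasl1, without, reached it only through the Trp53 KO library. Ifit3 and Ifit3b, and Oas1a and Oas1g, are close copies, so the higher members with a match are not separate cases. Over all 313 measured genes with a match 10.5% were higher and 14.1% lower, close to the 8.35% and 15.3% of all measured genes, and of the 304 that are not members 8.55% were higher and 14.5% lower. The matches did not sort the members completely either. Oasl1, with the highest ratio, has no match in its window, while Ifitm2 and Ifitm3 have matches and were not higher. A missing match says only that these letters are not in this window.

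Other genes of the pathway were taken from lists by role, and each list's counts are to be read against the 8.35% higher and 15.3% lower of all measured genes. Of the interferon genes themselves, 1 of 14 reached a mean of 1 TPM. This was Ifne, interferon epsilon, at 15.4 TPM from 181 reads in the Trp53 KO library and 3.49 TPM from 138 reads in the control library, a ratio of 4.41 (interval 3.52 to 5.55). Ifne lies on chromosome 4, the chromosome with the raised median given above. Ifnb1, interferon beta, and Ifnl2 and Ifnl3, interferons lambda, were listed at 0 in both libraries. In all, 10 of the 14 genes were listed at 0 in the Trp53 KO library and 12 in the control library.

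Of 9 receptor and kinase genes 1 was higher and 2 were lower, numbers near the shares of all measured genes, and their median difference was −0.78. Ifnar1 was 11.5 TPM in the Trp53 KO library and 23.0 TPM in the control library, a ratio of 0.502 (interval 0.466 to 0.540). Ifnar2 was 26.7 TPM in the Trp53 KO library and 46.4 TPM in the control library. Jak1, on chromosome 4, was the higher kinase gene at 27.6 TPM in the Trp53 KO library and 12.9 TPM in the control library. The lower genes were Jak2, which serves the interferon gamma receptor, at 17.2 TPM in the Trp53 KO library and 56.02 TPM in the control library, and Il10rb, a subunit of the interferon lambda receptor, at 19.7 TPM in the Trp53 KO library and 71.0 TPM in the control library. Ifnlr1, the other subunit of that receptor, also lies on chromosome 4. It was 3.49 TPM in the Trp53 KO library and 1.35 TPM in the control library, a ratio of 2.58 (interval 2.19 to 3.05). Its difference of 0.93 stayed within 2-fold on the log2(TPM + 1) scale.

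The pathway's transcription factors included 4 higher and 0 lower genes of 9 measured, and their median difference was 0.93. Examples are Stat2, Irf9 and Irf7. Stat2 was 5.48 TPM in the Trp53 KO library and 1.87 TPM in the control library, a ratio of 2.93 (interval 2.56 to 3.34). Irf9, the DNA-binding subunit, was 22.8 TPM in the Trp53 KO library and 7.47 TPM in the control library, a ratio of 3.06 (interval 2.84 to 3.30). Both of these parts of ISGF3 were thus higher by about the same ratio, and their intervals overlapped. Irf7, the factor that amplifies interferon production, was 17.98 TPM in the Trp53 KO library and 2.47 TPM in the control library, a ratio of 7.27 (interval 6.40 to 8.27).

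Among 8 genes listed as negative regulators 3 were higher, 0 were lower and the median was 0.06. They were Usp18, the signalling inhibitor Socs1 at 4.30 TPM in the Trp53 KO library and 1.52 TPM in the control library, and Isg20, an RNA exonuclease that degrades viral RNA and is itself an effector, at 156 TPM in the Trp53 KO library and 65.8 TPM in the control library. Nucleic acid sensors and adaptors had 2 higher genes and 1 lower among 14, also near the shares of all measured genes, and their median was 0.22. Ddx58, which encodes RIG-I and lies on chromosome 4, was 6.58 TPM in the Trp53 KO library and 2.68 TPM in the control library, and its relative Dhx58 was 6.07 TPM in the Trp53 KO library and 2.03 TPM in the control library. Ikbke, a kinase that activates interferon factors, was 8.34 TPM in the Trp53 KO library and 23.4 TPM in the control library.

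Genes known mainly as targets of interferon gamma had 0 higher and 2 lower among 11 measured, near the shares of all measured genes, and a median of −0.50. The lower ones were Gbp2, a guanylate-binding protein, at 4.52 TPM in the Trp53 KO library and 12.2 TPM in the control library, and Psmb8, an immunoproteasome subunit, at 14.6 TPM in the Trp53 KO library and 52.4 TPM in the control library. Another 25 measured genes of the type I response included 5 higher and 3 lower ones, and their median was 0.48. Slfn2, a schlafen protein that binds transfer RNA, was 143 TPM in the Trp53 KO library and 19.2 TPM in the control library, a ratio of 7.44 (interval 7.04 to 7.86). Phf11d, a PHD-finger gene induced by interferon in the mouse, was 5.72 TPM in the Trp53 KO library and 0.302 TPM in the control library, a ratio of 18.9 (interval 14.02 to 26.04). These 2 genes had the largest differences of that list. Parp11, a nuclear-pore ADP-ribosyltransferase, was 0.397 TPM in the Trp53 KO library and 2.99 TPM in the control library. Phf11d reached a mean of 1 TPM only through the Trp53 KO library, and Parp11 only through the control library. Lgals9, a secreted galectin, was 55.7 TPM in the Trp53 KO library and 10.2 TPM in the control library, and Gvin1, a large interferon-inducible GTPase, was 6.92 TPM in the Trp53 KO library and 20.8 TPM in the control library.

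**Figure D4:**
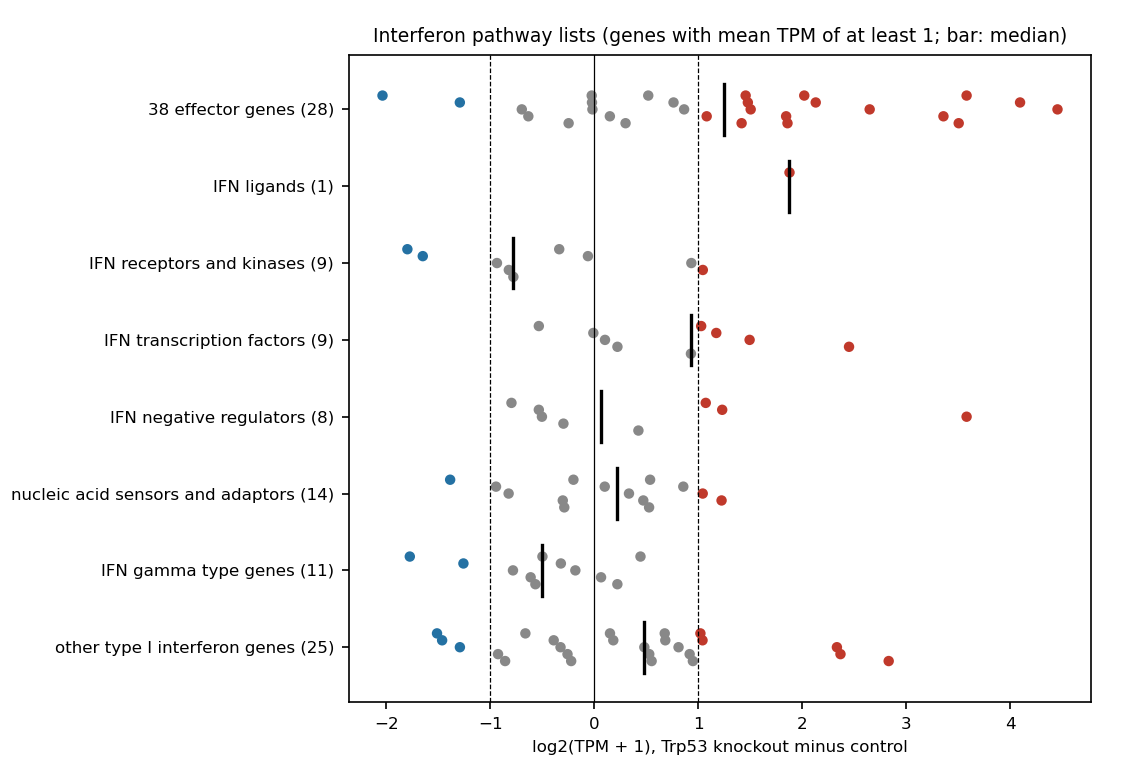
Difference in log2(TPM + 1), Trp53 KO library minus control library, for each measured gene of the effector group and of 7 pathway lists, with black bars for list medians and numbers of genes in brackets. The effector genes have a median of 1.25 and the transcription factors one of 0.93, while receptors and kinases, at −0.78, and interferon gamma type genes, at −0.50, lie to the left of 0.

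Markers of other cell types also differed between the libraries. All 5 basal and squamous markers, which include Krt5 and Trp63, were higher, with a summed level of 3005 TPM in the Trp53 KO library and 4.70 TPM in the control library. Of 5 multiciliated cell markers the 4 measured ones were lower, with a sum of 53.0 TPM in the Trp53 KO library and 158 TPM in the control library, and 2 were listed at 0 in the Trp53 KO library. Of 8 immune markers 3 were measured, and 2 of them were lower. Ptprc, the defining surface protein of blood cells, stood at 0.0110 TPM in the Trp53 KO library and 0.0886 TPM in the control library, and Cd3e and Cd79a were at 0 in both. The immune sum was 16.4 TPM in the Trp53 KO library and 291 TPM in the control library, most of it Lyz2 at 0 TPM in the Trp53 KO library and 257 TPM in the control library. The part of these cell types in the interferon gene differences was not tested.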

How the data were processed

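Total RNA was extracted from organoids with a column kit, strand-preserving libraries were made and paired-end 50-base reads were sequenced, per the labels' protocols. GRCm39 is the build that the submitters' processing notes name. Sources used here name no aligner, counting tool or annotation. TPM values were deposited by the authors for 25668 gene symbols in each of 2 libraries, and groups follow the genotype labels.

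Differences are log2(TPM + 1), Trp53 KO minus control, for genes whose mean TPM reaches 1. For low genes the pseudocount of 1 shrinks them below the ratio of the TPM values. Reads were recovered from the TPM values in a step chosen after the data were examined. In each library 1 read of a gene of 1000 bases is worth a fixed TPM, 0.0565 in the Trp53 KO library and 0.0168 in the control library, read from the commonest low values. For each gene the length, between 0.5 and 2 times its longest coding transcript in GENCODE M21, was sought at which both libraries held whole reads within 0.0005. This was found for 98.2% of 13531 genes with values in both libraries and for all 38 members, and for 0.665% of the genes when both constants were shifted by 1%. Where several lengths served, as for 19 members, the nearest to GENCODE M21 was taken. The true reads of these could be another multiple of those printed, with narrower or wider intervals and the same ratio. Other genes' reads are estimates at the GENCODE length. Intervals on ratios are exact Clopper-Pearson intervals at 95%. GENCODE M21 belongs to an earlier build and gave lengths, chromosomes and shared stretches only. A script checked these steps on simulated data. Python 3.11.15, numpy 2.4.6, pandas 2.3.3 and scipy 1.17.1 were used.

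The members and lists were chosen with earlier results of these data known. Named genes are Trp53, all 38 members, up to 6 genes of each pathway list that passed 2-fold, and receptor and transcription factor genes fixed by name. Some of these results are not reported here. With 1 library in each group no p-value, SD or leave-one-out fit was possible. A planned comparison of protein sequences was not made. Alternatives were another pseudocount, filter, scaling or threshold, leaving out chromosomes 2 and 4, and thinning.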

Additional observations from a re-analysis of the deposited data

How the results depend on the processing

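No member called higher or lower changed sign under any alternative tried. With control reads thinned to the depth of the Trp53 KO library the member counts stayed at 15 higher and 2 lower, against 924 and 1725 of 11163 genes. The member median of 1.25 became 1.36 with a pseudocount of 0.1, 0.69 with a pseudocount of 5, 0.77 with no filter on low values, 1.49 after rescaling by the median ratio, 1.44 after quantile normalization and 1.42 without chromosomes 2 and 4. The counts of members stayed within 1.5 times under these, with Ifit3, Ifit3b and Samhd1 inside 2-fold at a pseudocount of 5. At a 4-fold threshold 8 members were higher and 1 lower, against 267 and 661 of all genes. By the counting interval, a rule added after the data were examined, 20 members were higher and 2 lower, against 1184 and 2732 of all genes with a read. With the shortest or the longest gene length that gave whole reads in place of the nearest, 0 of the 38 interval calls differed. All genes gave 563 higher and 930 lower with a pseudocount of 5, and 1091 lower at a mean TPM of at least 5. Without mitochondrially encoded genes and the 100 highest genes, a setting that leaves out Ifitm3, 18 of 32 members were higher and 2 lower. In that setting 9.27% of 11691 genes were higher and 17.4% lower. Filters and thresholds leave the difference of a single gene as it is and were not repeated for each. No paired analysis was possible because each group has 1 library. Depth limits the rarest members most: Trim30a rests on 6 reads and Mx2 on 23 reads in the Trp53 KO library, and Mx2 and Oas3 on 15 and 17 reads in the control library.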

Other observations

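Relatives of the 38 genes in the same clusters, taken from the lists, did not all behave like them, and Oas1b and Oas1c are named after their values were seen. Oas1b, the family member tied to flavivirus resistance in mice, was 2.67 TPM in the Trp53 KO library and 0.785 TPM in the control library, a ratio of 3.40 (interval 2.50 to 4.64). Its neighbour Oas1c was 5.16 TPM in the Trp53 KO library and 6.36 TPM in the control library. Oas1c holds the long run of 3 GAAA repeats in its promoter window, as Oas1a and Oas1g do. In the Ifitm cluster, Ifitm6 was lower, at 10.5 TPM in the Trp53 KO library and 27.2 TPM in the control library, a ratio of 0.386 (interval 0.327 to 0.454).

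The long run was present in the window of 19 measured genes, of which 7 were at least 2-fold higher and 1 lower. Of these 7 higher genes, 4 are among the 38 members. Of the 15 genes with the run that are not members, 3 were higher and 1 lower, and their median difference was −0.28. Among all measured genes 8.35% were higher and 15.3% lower. Besides Isg15, Oas1a, Oas1g and Bst2 the higher ones were Socs1, Apol9a and Apol9b, and the last 2 were chosen after their values were seen. Apol9a, a mouse apolipoprotein L gene, was 16.9 TPM in the Trp53 KO library and 0.465 TPM in the control library. Apol9b, its close copy, was 9.97 TPM in the Trp53 KO library and 0.295 TPM in the control library, and the split between the copies is uncertain. Both reached a mean of 1 TPM only through the Trp53 KO library, and as copies they are not separate cases. The other 11 stayed within 2-fold, among them Irgm1, Trim21 and Gbp3, and the lower gene, also chosen after its value was seen, was Ctso, a cathepsin, at 1.22 TPM in the Trp53 KO library and 20.2 TPM in the control library.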
